A study of Mus musculus with 4 samples.

Results

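Nuclear receptors are transcription factors, many of which are switched by small lipid-soluble ligands such as steroid and thyroid hormones, retinoic acid, vitamin D, oxysterols, bile acids and xenobiotics. Most bind DNA as dimers, often with a retinoid X receptor as the partner, and they recruit coactivators or corepressors to nearby genes. In the intestinal epithelium they are known for control of lipid uptake, detoxification, mineral absorption and crypt renewal. The family was taken here by gene symbol: Nr1 to Nr6 with a following letter, Rxr, Rar, Thra, Thrb, Vdr, Esr, Esrr, Rora, Rorb and Hnf4, leaving out Nr1d1, Nr1d2, Nr1h4, Rarb and the Rarres genes. This gave 34 receptor genes, measured by 99 probe sets, of 18194 genes and 45101 probe sets in all. A further 7 genes share a prefix but encode no receptor (Rars, Rars2, Esrp1, Esrp2, Thrap3, Nr2c2ap and the antisense RNA Hnf4aos) and were not counted as members. Nr1h2, Nr1h5 and Nr2e3 were not analysed here.

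Paneth cells, the secretory cells of the crypt base, had been laser-captured from frozen small intestine of male NMRI mice aged 8 weeks. One group stayed germ-free, and the other, also reared germ-free, had carried the microflora of a conventionally raised mouse for 10 days. Equal amounts of RNA from 3 mice made 1 pool per group, and 2 aliquots of 10 ng per pool were each amplified and put on an Affymetrix Mouse430_2 array. Every test below therefore compares 1 pool with 1 pool against the error of amplification and array, and says nothing of the spread between mice. Signals are intensities on the authors' linear scale, and each receptor is represented by its probe set with the highest mean over the 4 arrays. Differences are conventionalized minus germ-free on the log2(signal + 32) scale, ± SE with 2 arrays per group, a scale on which changes of dim probe sets come out too small. In a bulk capture, fewer cells of a type and less RNA per cell cannot be told apart.

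The label was checked against markers. All 10 Paneth cell markers had a probe set and 9 lay above the median of all probe sets, all 9 with a difference above 0. Signals of the 10 markers summed to 66577 and 147695 in the germ-free pool against 267810 and 636408 in the conventionalized pool. The 9 had a median difference of 1.82, which was 0.80 with quantile normalization, and limma called 0 of them. RNA of neighbouring cells was also present: 11 absorptive enterocyte markers summed to 91416 and 169400 in the germ-free pool against 107254 and 253289 in the conventionalized one. These sums follow the brightest members, since 9 of the 11 markers had a difference below 0, at a median of -0.57. Conventionalized replicate 2 stood apart, correlating with the other arrays at a Pearson r across probe sets of 0.754 to 0.779. Fluidics station 1 served the germ-free and station 2 the conventionalized duplicates, and its effect cannot be told apart from that of colonization.

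The comparison set receptor transcripts of the colonized pool against those of the germ-free pool. No receptor passed the test in either direction. Of the 34 receptors, 27 had their brightest probe set above the median signal of all probe sets (113.9) and entered the test with all other genes. limma called 0 of the 27 higher, beside 0.107% of the 12113 genes tested, and 0 lower, beside 0.248% (0.355% in either direction). Over all probe sets it called 75 of 22491, or 0.333%. Adjusted p-values of the receptors ran from 0.475 to 1.0, and 1 had an unadjusted p under 0.05, or 3.70%, beside 5.94% of all genes. That receptor was Hnf4g, which read lower in conventionalized cells. The median difference of the 27 was 0.08, with 15 above 0 and 12 below, beside a median of 0.00 and 6059 of 12113 above 0 among all genes. It went to -0.17 without germ-free replicate 2, where the median of all probe sets went to -0.11. Both conventionalized arrays lay above both germ-free arrays for 5 of the 27 (18.5%, beside 15.9% of all genes) and below them for 4 (14.8%, beside 16.1%). The share of receptors set apart in this way was thus near that of genes at large.

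The test did not show that receptors stayed the same. On the log2(signal + 32) scale, with a spread taken from probe sets of like signal, the 95% interval stayed within 2-fold in either direction for 1 receptor, Nr2f6, and within 4-fold for 22 of 27. For dim receptors the same bounds allow larger changes of the signal itself. Duplicate arrays of 1 pool differed by a median of 0.61 (germ-free) and 0.48 (conventionalized) on the log2 scale over the 27 receptors, whereas the pools differed by a median of 0.42. The pool difference was larger than both duplicate differences for 4 receptors, namely Hnf4g, Rorb, Esrrg and Thra, or 14.8%, beside 19.5% of all genes. Duplicates lay more than 2-fold apart for 8 receptors where the pool was germ-free (29.6%, beside 19.1% of all genes). They did so for 7 where it was conventionalized (25.9%, beside 26.3%). The values of each receptor on each array follow by family branch, and the plot of signals by array shows all 34.

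**Figure D1:**
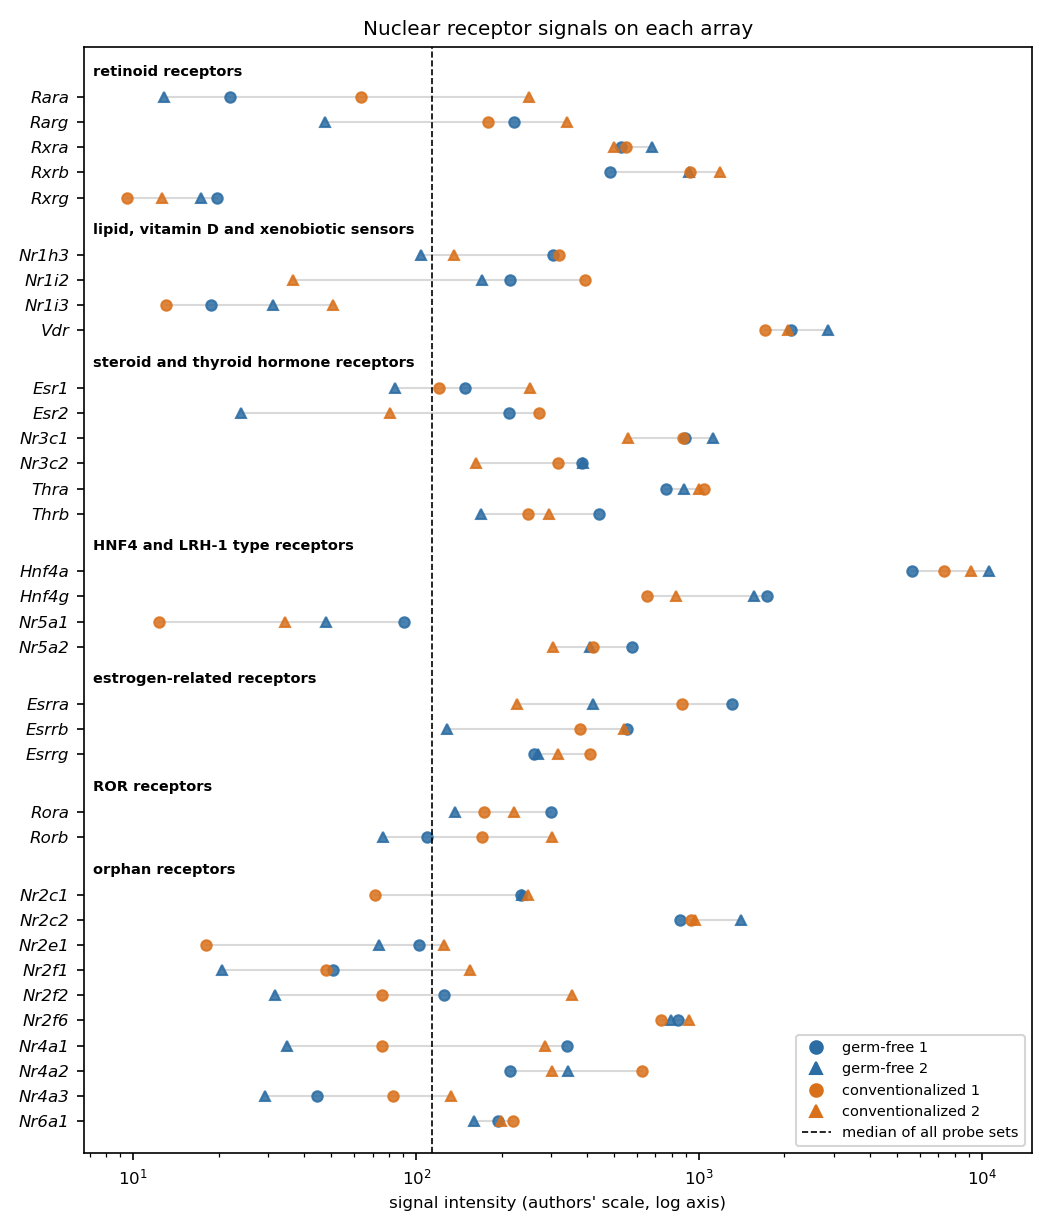
Signal of the brightest probe set of each of the 34 receptors (horizontal log axis, authors' scale) on the 2 germ-free and 2 conventionalized arrays, by branch of the family, with the median of all probe sets as a dashed line. Hnf4a, Vdr and Hnf4g lie well to the right of the line on all 4 arrays, and the 2 pools of Hnf4g do not overlap.

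Hnf4a and Hnf4g are orphan receptors that maintain the genes of the intestinal and hepatic epithelium. Hnf4g, at its brightest probe set, read 1734 and 1562 in the germ-free pool against 655 and 828 in the conventionalized pool. Both conventionalized values lay below both germ-free values, and the difference was -1.13 ± 0.42 (95% interval -1.95 to -0.31; limma adjusted p = 0.475). The limma adjusted p ran from 0.317 to 1.0 over the planned processing settings with all 4 arrays. With crossed aliquot numbers, a setting added later, it was 0.0753. The difference ran from -1.29 to -0.96 with any 1 array left out. A second Hnf4g probe set above the median, much dimmer, read 89.6 and 131 against 143 and 111, a difference of 0.17 ± 0.96 with overlapping groups. The lower reading of Hnf4g thus rests on 1 of its 2 probe sets above the median.

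Hnf4a, the wider-acting relative, read 5663 and 10553 in the germ-free pool against 7339 and 9129 in the conventionalized one at its brightest probe set. These groups overlapped, and the difference was 0.08 ± 0.54. Its 3 other probe sets above the median differed by -0.83, -0.17 and 0.00. The one at -0.83 read 1320 and 1848 against 1149 and 651, without overlap (limma adjusted p = 0.968). The suffix of the brightest probe set, s_at, marks probes that can bind more than 1 transcript.

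The Nr5a receptors bind DNA as monomers. Nr5a2 (LRH-1), known for crypt renewal and for glucocorticoid synthesis in the gut, read 577 and 412 against 421 and 303. The groups overlapped, at a difference of -0.42 ± 0.48, and its 2 other probe sets above the median differed by 0.40 and -0.02. Nr5a1 (SF-1), the adrenal and gonadal member, stayed under the median of all probe sets, with 90.6 and 48.1 against 12.3 and 34.3. For this branch the probe sets of a single gene disagreed in sign in each of the 3 receptors tested.

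Among the retinoid receptors, Rxra and Rxrb encode the shared dimer partners. Rxrb read 482 and 916 in the germ-free pool against 930 and 1180 in the conventionalized one, a difference of 0.63 ± 0.43 (limma adjusted p = 0.999). The conventionalized values were both higher, but germ-free replicate 2 came within a narrow margin of them, and the difference was 0.19 without germ-free replicate 1. Rxra read 527 and 682 against 552 and 500, overlapping, at -0.18 ± 0.45. Rxrg, a muscle and brain form, lay at the dim end of the arrays with 19.8 and 17.3 against 9.5 and 12.6.

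The retinoic acid receptors proper were dim. Rarg read 222 and 47.5 against 179 and 342, so that the groups overlapped and the germ-free duplicates differed by 1.68 on the log2 scale. Its difference was 0.98 ± 0.71, or 0.14 without germ-free replicate 2. Rara read 21.9 and 12.8 in the germ-free pool against 63.7 and 251 in the conventionalized one. Both conventionalized arrays were higher, but the mean of 87.4 kept Rara out of the test, and 1 array carried most of that mean. With no filter its limma p was 0.062 and its adjusted p 1.0. Rarb, named as left out of the set, read 121 and 11.4 against 127.5 and 202, a difference of 1.24 ± 1.19. All 3 Rar genes thus had their lowest reading on germ-free replicate 2 and their highest on conventionalized replicate 2.

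Among the sensors of lipids, vitamin D and xenobiotics, Vdr, the receptor for active vitamin D, read well above the median of all probe sets on each array. It gave 2106 and 2850 in the germ-free pool against 1712 and 2051 in the conventionalized one. Both conventionalized values lay under the lower germ-free value, at -0.38 ± 0.42 (95% interval -1.21 to 0.45), and a second Vdr probe set differed by -0.35. Vdr duplicates differed by 0.43 (germ-free) and 0.26 (conventionalized) on the log2 scale, the former more than the pools did. The interval reaches from over 2-fold lower to somewhat higher.

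Nr1h3 (LXR alpha), an oxysterol receptor of cholesterol export, read 303 and 104 against 318 and 136. The arrays paired up by aliquot number and not by pool, and the difference was 0.18 ± 0.64. Nr1i2 (PXR), the xenobiotic sensor of gut and liver, read 214 and 170 against 393 and 36.8. The conventionalized duplicates of Nr1i2 were 2.63 apart on the log2 scale, more than any other duplicates of a tested receptor. Its 2 probe sets differed by -0.38 ± 0.72 and 0.78 ± 0.68, so no direction could be given. Nr1i3 (CAR), its liver-centred relative, was dim throughout, from 13.0 to 50.9.

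Of the steroid hormone receptors, Nr3c1, the glucocorticoid receptor, read 890 and 1121 in the germ-free pool against 879 and 560 in the conventionalized one. The groups did not overlap but nearly touched, at -0.49 ± 0.43, and all 3 of its probe sets above the median lay below 0, from -0.52 to -0.14. Nr3c2, the mineralocorticoid receptor, read 384 and 389 against 317 and 163. Its germ-free duplicates were nearly equal and both higher, and the difference was -0.68 ± 0.53, or -0.26 without conventionalized replicate 2. Neither corticosteroid receptor passed (limma adjusted p = 0.999 for each).

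The estrogen receptors were dim and their duplicates poor. Esr1 read 148 and 83.8 against 120 and 252, a difference of 0.53 ± 0.81. Esr2 read 212 and 24.0 against 271 and 80.6, a difference of 0.66 ± 0.98. In Esr2 the duplicates of each pool lay farther apart than the pools, with the second aliquot low in both.

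Thyroid hormone acts in crypts mainly through Thra. Thra read 765 and 880 in the germ-free pool against 1040 and 998 in the conventionalized one, without overlap and with close duplicates, at 0.30 ± 0.42 (95% interval -0.53 to 1.13). Its 2 other probe sets above the median differed by 0.53 and -0.27. Thrb, the form prominent in liver, read 442 and 169 against 249 and 295, overlapping, at -0.03 ± 0.55. The standard error of Thra is that of genes of like signal, so its own tight duplicates do not lower it.

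The estrogen-related receptors are orphans that drive genes of mitochondrial energy supply. Esrra read 1310 and 422 against 866 and 226, with the second aliquot below the first by 1.56 and 1.80 on the log2 scale. Its difference of -0.70 ± 0.45 went to 0.20 without conventionalized replicate 2 and to 0.09 without germ-free replicate 1. A second Esrra probe set above the median read 204 and 315 against 218 and 301, at 0.01 ± 0.56. There the second aliquot was the higher one in both pools. Esrrb, known from pluripotent cells, read 555 and 127.9 against 378 and 542, at 0.66 ± 0.50, or -0.27 without germ-free replicate 2. Only 1 of the 3 Esrrb probe sets lay above the median. Esrrg, the form of oxidative tissues, read 260 and 270 against 412 and 316. Its groups did not overlap, at 0.40 ± 0.52, but its other 2 probe sets above the median differed by -0.13 and -0.95.

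Of the ROR receptors, which activate clock genes, Rora read 300 and 137 against 174 and 222, at -0.05 ± 0.63. A second Rora probe set differed by 0.90 ± 1.07. Rorb, a form of the nervous system, read 109 and 76.1 in the germ-free pool against 170 and 302 in the conventionalized one. Both conventionalized values were higher, at 1.07 ± 0.79 (limma adjusted p = 0.999), from 0.71 to 1.44 with 1 array left out. Rorb had 1 of its 3 probe sets above the median.

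The remaining orphan receptors have varied roles in development and metabolism. Nr2f6 (EAR2) read 842 and 792 against 730 and 922, overlapping, at 0.01 ± 0.43 (95% interval -0.83 to 0.84). Nr2c2 (TR4) read 852 and 1406 against 931 and 968, at -0.20 ± 0.42. Both had overlapping groups and duplicates within 0.70 on the log2 scale. Nr6a1 (GCNF) read 194 and 160 against 220 and 199, slightly higher on both conventionalized arrays, at 0.21 ± 0.65. Nr2c1 (TR2) read 235 and 237 against 71.2 and 249, with conventionalized replicate 1 alone apart. Its difference of -0.65 ± 0.67 was 0.07 without that array.

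Nr2f2 (COUP-TFII), a receptor of mesenchyme and veins, read 125 and 31.7 against 75.8 and 356. The top value stood on conventionalized replicate 2, and the difference of 1.03 ± 1.01 was 0.11 without it. Nr2f1 (COUP-TFI) was under the median, and its 50.7 and 20.5 against 47.9 and 155 were likewise highest on that array. The 7 fibroblast markers had a median difference of -0.02 and summed to 4970 and 5359 in the germ-free pool against 4725 and 4410 in the conventionalized one. Endothelial markers summed to 757 and 516 against 324 and 539, with 1 of 4 tested above 0. The part of these cells in the Nr2f readings was not tested. Nr2e1 (TLX), of neural stem cells, read 102 and 73.9 against 18.1 and 125.

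Nr4a receptors are immediate early genes, induced within a short time of a stimulus. Nr4a2 (NURR1) read 215 and 344 in the germ-free pool against 627 and 302 in the conventionalized one, overlapping, at 0.62 ± 0.51, with a second probe set at 0.51. Nr4a1 (NUR77) read 340 and 34.9 against 75.6 and 286. Its duplicates were 2.47 and 1.57 apart on the log2 scale, with the difference at 0.23 ± 0.82. Nr4a3 (NOR1) stayed under the median with 44.7 and 29.1 against 82.7 and 133, higher on both conventionalized arrays. With no filter, none of the 7 receptors under the median was called (limma adjusted p = 1.0 for each).

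The plot of differences per receptor sets these values side by side. Of the 14 receptors with more than 1 probe set above the median, 9 had probe sets on both sides of 0. In 3 all lay below 0 (Nr2c1, Nr3c1, Vdr) and in 2 all lay above (Nr4a2, Nr6a1). Of the 13 other processing settings tried, 12 apply to receptors outside the brightest 25% of probe sets. Over the settings that apply, 14 receptors kept the sign of their difference. These were 8 higher (Esr1, Nr2f2, Nr4a2, Nr6a1, Rarg, Rorb, Rxrb, Thra) and 6 lower (Hnf4g, Nr3c1, Nr3c2, Nr5a2, Rxra, Vdr). Among the lower ones, Rxra came to -0.0 without germ-free replicate 2. The other 13 receptors changed sign in at least 1 setting.

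**Figure D2:**
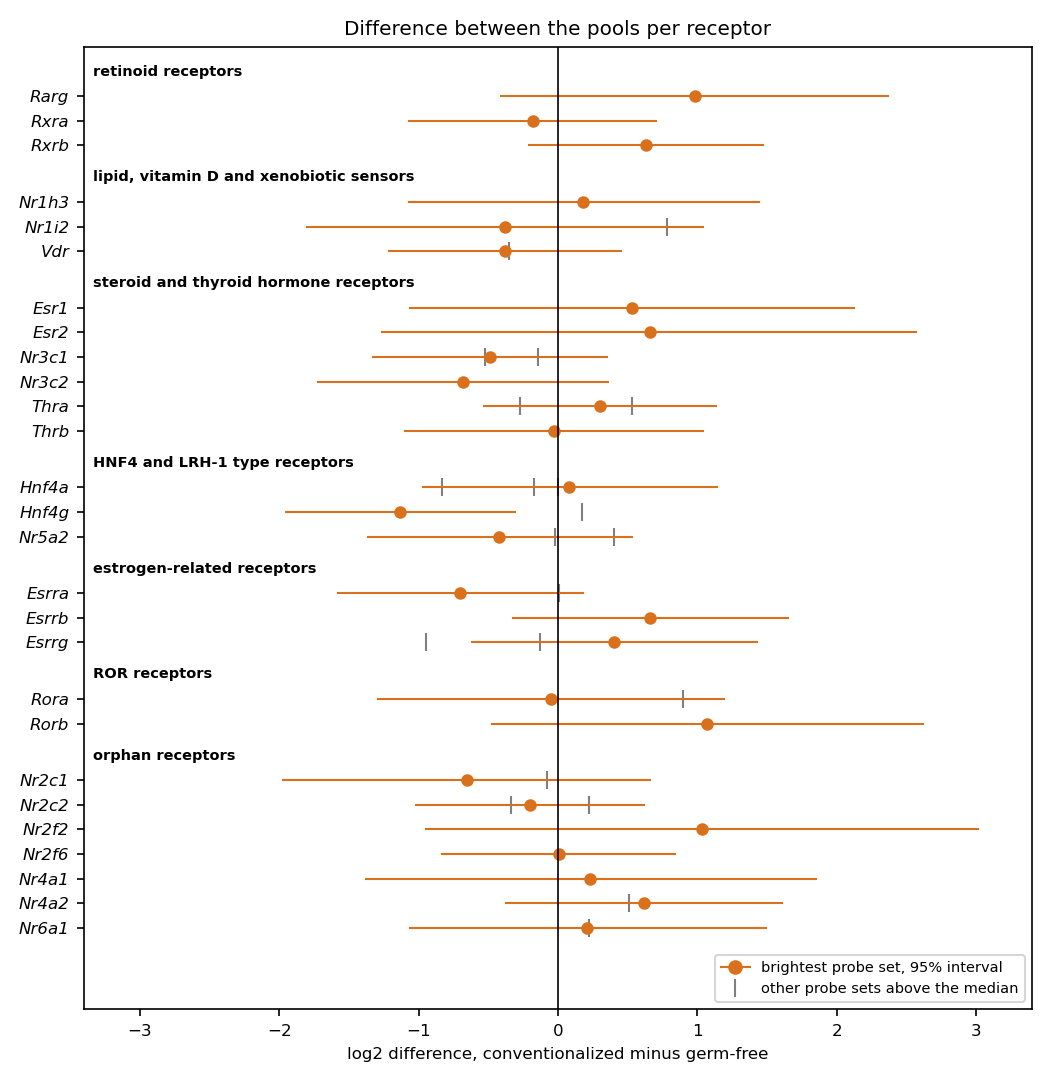
Log2 difference, conventionalized minus germ-free, of the 27 receptors tested, as the brightest probe set (point) with its 95% interval from limma (line), and of their other probe sets above the median (grey ticks). The interval of Hnf4g, from -1.95 to -0.31, is the one that leaves out 0, and the grey tick of Hnf4g lies on the other side of 0.

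Germ-free replicate 2 gave the lowest of the 4 readings for 11 of the 27 receptors, or 40.7%, beside 26.3% of all genes. The highest readings were spread over the arrays, at 7, 6, 7 and 7 receptors. For receptors lowest on germ-free replicate 2, the difference must fall without that array, so the fall itself tells nothing about them. Its size varied: from 0.98 to 0.14 for Rarg, 0.66 to -0.40 for Esr2 and 1.03 to 0.38 for Nr2f2. For Rorb it was from 1.07 to 0.88 and for Nr6a1 from 0.21 to 0.10. The plot of pool against duplicate differences shows the 4 receptors whose pool difference exceeded both duplicate differences, or 14.8%, beside 19.5% of all genes.

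**Figure D3:**
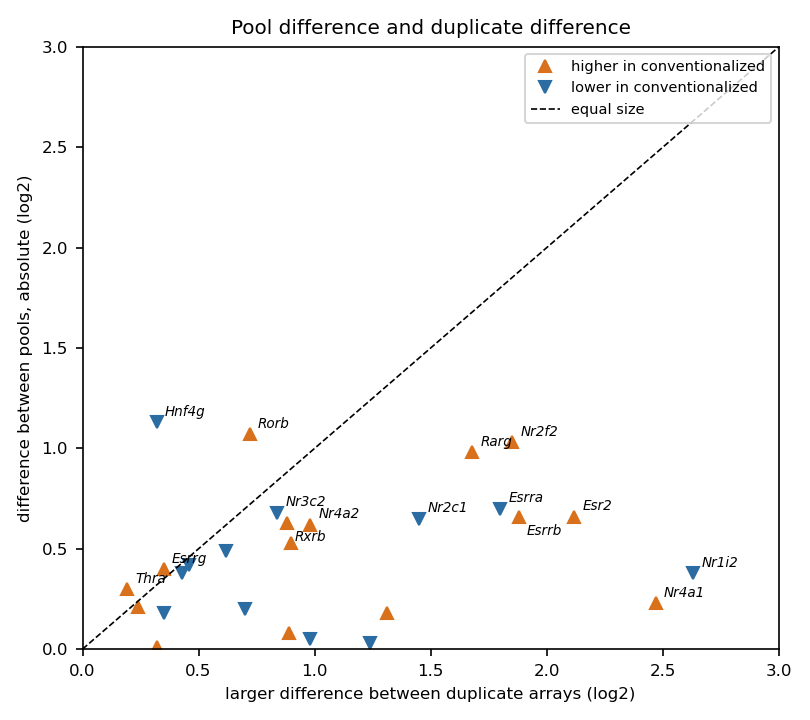
Size of the log2 difference between the pools (vertical) against the larger of the 2 differences between duplicate arrays (horizontal) for the 27 receptors tested, with the line of equal size. Hnf4g, Rorb, Esrrg and Thra lie above the line, and Nr1i2 lies farthest to the right at 2.63.

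Receptors act through coregulators. Of 21 genes of this list, 18 lay above the median, and limma called 0 of 18. An unadjusted limma p under 0.05 was found for 1 (5.56%, beside 5.94% of all genes). The median difference was -0.28, with 12 below 0, and -0.10 without conventionalized replicate 2. Kdm1a, a histone demethylase of corepressor complexes, read 491 and 646 in the germ-free pool against 320 and 175 in the conventionalized one, at -1.14 ± 0.50 (limma adjusted p = 0.782). Nrip1, a corepressor of hormone receptors, read 539 and 640 against 397 and 390, at -0.54 ± 0.47, while its 5 probe sets above the median ran from -0.71 to 1.29, with 2 above 0. Nsd1, a histone methyltransferase that binds receptors, read 643 and 543 against 409 and 419, at -0.48 ± 0.46. Groups lay apart for 5 of 18 coregulators, each lower in conventionalized cells, or 27.8%, beside 16.1% of all genes that were lower in this way.

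Enzymes that make or inactivate ligands held 1 called gene. Rdh7, a retinol dehydrogenase on the path to retinoic acid, read 3153 and 3592 in the germ-free pool against 464 and 658 in the conventionalized one. It fell by 2.54 on the log2 scale (SE 0.42; limma adjusted p = 2.99e-06), with both conventionalized arrays far below both germ-free arrays, and was called in 12 of 13 other settings, the exception being limma without a variance trend. Aldh1a1, which oxidizes retinal to retinoic acid, read 4692 and 6386 against 2107 and 1583, at -1.57 ± 0.44 (limma adjusted p = 0.08, from 0.0318 to 1.0 over the 13 settings, with a call under quantile normalization). It was also called with crossed aliquot numbers. Hsd11b2, which inactivates glucocorticoids, read 439 and 486 against 700 and 860, at 0.71 ± 0.45. Rbp2, a retinol carrier of enterocytes, read 68.3 and 113 against 143 and 426, at 1.23 ± 0.76. Aldh1a1, Hsd11b2 and Rbp2 were chosen here after their values were seen. Of 10 genes tested in this list of 21, 1 (Rdh7) was called lower, beside 0.248% of all genes, and 0 higher, beside 0.107%. The median was -0.53, or -0.19 without conventionalized replicate 2. Absorptive enterocyte markers had a median of -0.57, and their part in these readings was not tested.

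Known target genes of retinoic acid receptors lay on both sides of 0. Of 5 RAR targets tested 0 were called, with 0 at an unadjusted p under 0.05, and the median of -0.44 went to 0.04 without conventionalized replicate 2. Dhrs3, a retinal reductase induced by retinoic acid, read 576 and 646 against 332 and 353, at -0.78 ± 0.47. Tgm2, a transglutaminase, read 8498 and 12404 against 19110 and 15675, at 0.75 ± 0.63. Both were set apart between the pools, in opposite directions.

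Targets of the xenobiotic receptors lay below 0 in the median, with no member called. In 4 of 13 other settings 1 member was called: Aldh1a1 under quantile normalization, and Ces2a with a smaller pseudocount, with the mean of all probe sets or without conventionalized replicate 1. Of 11 PXR and CAR targets tested, 8 were below 0. An unadjusted limma p under 0.05 was found for 3 (27.3%, beside 5.94% of all genes). The groups lay apart for 7, each lower in conventionalized cells, or 63.6%, beside 16.1% of all genes. The median was -0.73, and from -0.79 to -0.67 with any 1 array left out. Ces2a, an intestinal carboxylesterase, read 509 and 580 against 278 and 22.0, at -2.15 ± 0.58 (limma adjusted p = 0.0529), or -0.89 without conventionalized replicate 2 and -3.41 without conventionalized replicate 1. Abcb1a, the P-glycoprotein drug pump, read 1451 and 2967 against 769 and 1209, at -1.08 ± 0.42 (limma adjusted p = 0.551). Aldh1a1 belongs to this list too. Cyp3a11, the best known PXR target in mice, read 4368 and 7032 against 5473 and 9734, at 0.40 ± 0.51, and is named here after its value was seen. Absorptive enterocyte markers come from cells that also express these targets. They were below 0 in 9 of 11 cases, at a median of -0.57. Groups lay apart lower for 4 of these markers (36.4%, beside 16.1% of all genes) and higher for 1 (9.09%, beside 15.9%). The part of these cells in the lower readings was not tested.

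HNF4 targets are genes of the absorptive cell. Of 13 tested, 11 lay below 0, with a median of -0.38 that went to 0.06 without conventionalized replicate 1 and to -0.04 without germ-free replicate 2. Apoc3, which slows the clearance of triglycerides from blood, read 7779 and 12602 in the germ-free pool against 1270 and 3740 in the conventionalized one and fell by 2.16 (SE 0.47; limma adjusted p = 0.00332). Its call was lost in 6 of 13 other settings, among them on leaving out germ-free replicate 2 (-1.82) or conventionalized replicate 1 (-1.40), and also under quantile normalization, under median centring and with no variance trend. The other 12 did not pass, and the 1 of 13 called lower stands beside 0.248% of all genes. Groups lay apart lower for 2 of the 13 (15.4%, beside 16.1% of all genes) and higher for 1 (7.69%, beside 15.9%). Apoc3 is among the enterocyte markers itself, and 4 of the HNF4 targets beside it stand in that list as well.

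Targets of the other receptors gave no called gene, and limma found 0 to 2 of each list at an unadjusted p under 0.05. LXR targets had a median of -0.10 over 9 genes. The sterol half-transporters Abcg8 (-0.65 ± 0.44) and Abcg5 (-0.42 ± 0.42) and the phospholipid enzyme Lpcat3 (-0.55 ± 0.43) were each set apart lower. These made 33.3% of the 9, beside 16.1% of all genes, and 0 were set apart higher, beside 15.9%. Of 4 VDR targets, with a median of -0.05, Atp2b1, a calcium pump, stood at -0.65 ± 0.47 with groups apart, and its probe sets ran from -1.10 to 0.22. The calcium channel Trpv6 (10.9 to 191) and the calcium-binding protein S100g (3.2 to 21.6) lay under the median of all probe sets, and were chosen after their values were seen.

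Corticosteroid receptor targets had a median of -0.11 over 12 genes and went both ways. With crossed aliquot numbers 1 of the 12 was called. Fkbp5, a chaperone partner of the glucocorticoid receptor, read 601 and 581 in the germ-free pool against 1043 and 890 in the conventionalized one, at 0.68 ± 0.43. The metallothionein Mt2 read 2107 and 3502 against 996 and 1384, at -1.19 ± 0.42 (limma adjusted p = 0.375). Errfi1, a feedback inhibitor of EGF receptor signalling, stood at -1.15 ± 0.45, with a second probe set at 0.21. These 3 were each set apart between the pools. Of the 12, 2 (16.7%) were set apart higher and 2 (16.7%) lower, beside 15.9% and 16.1% of all genes.

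LRH-1 targets had a median of 0.86 over the 5 tested of 9, and 0.19 without conventionalized replicate 2. Groups lay apart higher for 2 of these 5 and lower for 1, beside 15.9% and 16.1% of all genes. An unadjusted limma p under 0.05 was found for 2 of the 5, beside 5.94% of all genes. Ccnd1, cyclin D1, read 745 and 1177 against 2380 and 1838, at 1.13 ± 0.42 (limma adjusted p = 0.447). Ccne1, cyclin E1, read 472 and 539 against 1583 and 556, at 0.86 ± 0.44. The second conventionalized array of Ccne1 thus lay near the germ-free values, and the list median of 0.86 is the difference of this gene. Scarb1, a lipoprotein receptor, stood at -0.78 ± 0.88. Estrogen-related receptor targets had a median of 0.17 over 11 genes, which was -0.08 with quantile normalization and lay between -0.25 (no germ-free replicate 1) and 0.59 (no germ-free replicate 2). Their members with the largest differences and groups apart were Cycs, Mdh2 and Ndufa4, all of mitochondria, at 0.88, 0.80 and 0.80, of which Cycs was at -0.08 and Mdh2 at -0.07 with quantile normalization. A second Mdh2 probe set stood at -0.46. Groups lay apart higher for 3 of these 11 targets (27.3%, beside 15.9% of all genes) and lower for 1 (9.09%, beside 16.1%). Thyroid hormone receptor targets had a median of -0.17 over 5 genes, with Me1, malic enzyme, at -0.74 ± 0.57.

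Further receptors lie outside the set by name. Of 10 with a probe set, 5 lay above the median, and all 5 had groups that did not overlap, 3 lower and 2 higher (beside 16.1% and 15.9% of all genes), with 0 called by limma and 0 at an unadjusted p under 0.05. Ppara, the fatty acid sensor, read 274 and 266 in the germ-free pool against 140 and 35.2 in the conventionalized one, at -1.49 ± 0.78 (limma adjusted p = 0.998), with 1 of its 3 probe sets above the median at 0.16. Pgr, the progesterone receptor, read 296 and 210 against 33.9 and 149, at -1.37 ± 0.80. Nr1h4 (FXR), the bile acid receptor, and named after its values were seen, read 560 and 587 against 757 and 782, at 0.40 ± 0.44, with the closest duplicates of these 5. The plot of lists shows the receptors scattered around 0 and the called genes Rdh7 and Apoc3 beside them.

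**Figure D4:**
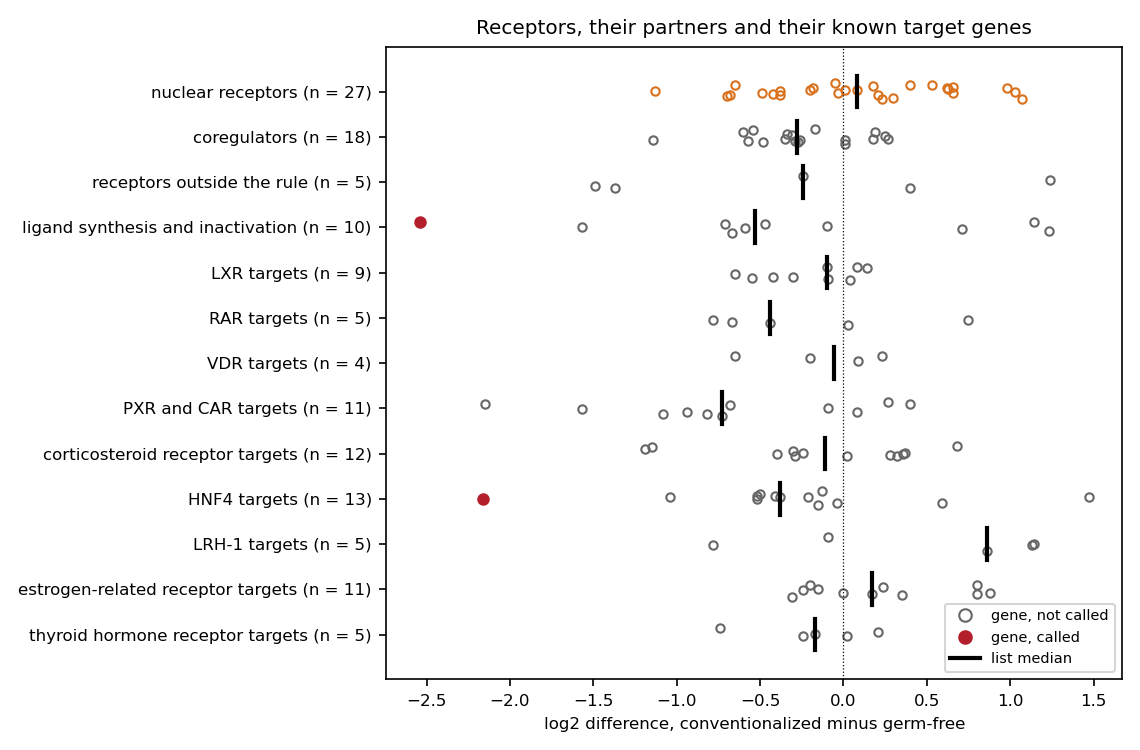
Log2 difference, conventionalized minus germ-free, of each tested gene (circle, brightest probe set) of the receptor family, its coregulators, ligand enzymes and known targets, with the list median as a bar and called genes filled. The receptor median lies at 0.08, the PXR and CAR target median at -0.73, and the filled points are Rdh7 (-2.54) and Apoc3 (-2.16).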

How the data were processed

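The deposited values were linear signal intensities of each probe set. With 2% trimmed at both ends, every array averaged 250, so they were used as already scaled. The software behind them is not given in the sources used here. Symbols are those of GEO's 2016 platform annotation. Of 45101 probe sets, 34958 named 1 gene, 932 several and 9211 none.

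Intensities were turned into log2(intensity + 32). Of the probe sets, 22491 had a mean above the median of all and were no array controls, and these were fitted with limma 3.58.1 in R 4.3.3 (lmFit, eBayes with a variance trend), adjusted by Benjamini-Hochberg over all and called under 0.05. The prior degrees of freedom came out infinite, so standard errors are those of probe sets of like signal. The fit was tested on simulated data. With 4 arrays an exact permutation test cannot go below p = 0.333.

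Members and gene lists were chosen with earlier results of these data known. The rule named every receptor and, of each other list, called genes or else up to 3 genes with the largest difference among those whose groups do not overlap. Alternatives covered the scaling, pseudocount, filter, variance trend, aliquot block, probe set choice and each array left out. The scanner parameter files were read for stations only.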

Additional observations from a re-analysis of the deposited data

How the results depend on the processing

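No receptor was called under any of the 13 other settings. Of 340 single-receptor values under them, 26 changed sign, none of them called. Without a variance trend limma called 0 of 22491 probe sets, with 975 at an unadjusted p under 0.05, and 0 of 27 receptors were under 0.05 unadjusted, so the calls of Rdh7 and Apoc3 rest on that trend. Receptors with groups that do not overlap numbered 9, 5 with median centring, and 15 to 21 with 1 array left out, where a group of 1 array is easier to clear. Those above 0 were 15, 7 of 16 tested among the brightest 25% of probe sets, and 11 to 17 with 1 array left out. Their median ran from -0.17 to 0.20 with 1 array left out and from -0.10 to 0.18 over the remaining settings. The labels number the aliquots 1 and 2 in each pool, but the number names a sample only. Across probe sets, deviations of same-numbered arrays correlated at -0.13. With the aliquot number as a replicate block the calls went from 27 higher and 48 lower to 13 and 17, 0 receptors were called (0 higher, 0 lower; 15 above 0, median 0.08) and Apoc3 lost its call. With the numbers crossed, a setting added after this was seen, 71 and 157 probe sets and 0 receptors were called. So were 2 ligand enzymes, 2 PXR and CAR targets, 1 corticosteroid receptor target and 1 HNF4 target. Aldh1a1 counts among both the ligand enzymes and the PXR and CAR targets. Leaving out 1 array gave between 41 and 213 calls over all probe sets, and how many of them are among the 75 was not counted.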

Other observations

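Several genes that share a name prefix with the receptors but encode other proteins were measured on the same arrays. Esrp2, an epithelial splicing regulator, read 245 and 340 in the germ-free pool against 562 and 548 in the conventionalized one, at 0.87 ± 0.49 (limma adjusted p = 0.999). A second Esrp2 probe set stood at -0.55. Rars and Rars2, the cytosolic and mitochondrial arginyl-tRNA synthetases, differed by -0.11 ± 0.43 and -0.32 ± 0.44, and Thrap3, an RNA processing protein, by -0.02 ± 0.42. Hnf4aos, an antisense RNA of the Hnf4a locus, read 233 and 152 against 202 and 541, at 0.73 ± 0.56.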
